A study of Homo sapiens with 18 samples.

Results

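The anterior HOX genes described here are 9 members of paralogue groups 1 to 4: HOXB1 in group 1, HOXA2 and HOXB2 in group 2, HOXA3, HOXB3 and HOXD3 in group 3, and HOXA4, HOXB4 and HOXD4 in group 4. They were chosen by symbol, with earlier results of these data known, and are 9 of the 37550 rows of a table of gene expression in neural ectoderm made from human stem cells. Another 3 genes of these paralogue groups have rows in the table and are not described here. The 9 genes lie in 3 of the human HOX clusters, HOXA on chromosome 7, HOXB on chromosome 17 and HOXD on chromosome 2.

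HOX genes encode homeodomain transcription factors that give cells their identity along the axis from head to tail. Their order along a cluster follows the order of their anterior expression limits, so that the low-numbered groups reach farthest forward, into the hindbrain, and forebrain and midbrain lie in front of all of them. Retinoic acid switches on the low-numbered end of the clusters first in cultured pluripotent cells, and HOX proteins bind DNA together with the PBX and MEIS cofactors.

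Messenger RNA was measured in wild-type H1 cells, an established line of human pluripotent stem cells, with 2 biological replicates in each of 9 groups, 18 libraries in all. The hPSC group is the undifferentiated line at day 0. All other groups spent day 1 in the same definitive ectoderm medium, which held the TGF-beta receptor inhibitor A8301 at 1 µM, the MEK inhibitor Trametinib at 250 nM, C59 at 1 µM, which blocks the secretion of WNT ligands, and the BMP receptor inhibitor LDN193189 at 100 nM. On day 2, cells destined for anterior neural ectoderm (aNE) received A8301 at 1 µM, LDN193189 at 100 nM and C59 at 1 µM. Cells destined for posterior neural ectoderm (pNE) received A8301 and LDN193189 at these doses, 50 nM TTNPB, which activates retinoic acid receptors, 20 ng/mL FGF2, and 1 µM XAV939, a tankyrase inhibitor that lowers WNT signalling. The survival aid Thiazovivin was in both day-2 media. Cells of either origin were then carried to day 4 in media labelled forebrain (aNE_T and pNE_T), midbrain (aNE_M and pNE_M) or hindbrain (aNE_H and pNE_H). On day 3 the forebrain medium held XAV939 at 1 µM, LDN193189 at 100 nM and FGF2 at 20 ng/mL, and its later composition and those of the midbrain and hindbrain media are not used here. Cells collected on day 2 were seeded at 37500 per cm2 in both arms. For day 4 the density was 75000 per cm2 in the anterior arm and 150000 per cm2 in the posterior arm, so at day 4 origin and density cannot be told apart. Between day 2 and day 4 of either arm, day, medium and density cannot be told apart. All cells came from 1 line.

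Levels are given as transcript abundances scaled to the library total (TPM), which are also scaled to gene length, so levels of different genes can be set side by side. A library held 19239 to 21235 genes above 0 TPM, and the number of reads behind the values is unknown. Differences are on the log2(TPM + 1) scale with their standard error (SE) from limma, a linear model fitted to all 18 libraries. This scale understates changes of genes at low levels. A gene was called higher or lower at an adjusted p under 0.05 over the 17033 tested genes together with a difference of at least 1. In the check of labelled identity, the summed level of 6 neural ectoderm markers was 208 to 218 TPM in hPSC, 933 to 948 in aNE and 371 to 460 in pNE. At day 4 it was 732 to 737 TPM in aNE_T and 339 to 369 in pNE_T. It was 124 to 176 across aNE_M and aNE_H and 99.6 to 131 across pNE_M and pNE_H, below the stem cells. SOX2, which is also on in the stem cells, held most of the hPSC sum, at 191 TPM. The other markers were all higher in aNE_M and aNE_H than in hPSC. In pNE_M and pNE_H they went both ways, with PAX6 at 0.37 and 5.39 TPM against 0.0616 in hPSC. SOX3 was at 2.43 and 4.86 TPM against 21.4. In bulk samples, fewer cells of a type and less RNA per cell cannot be told apart.

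Sequence upstream of the start sites is shown because the posterior medium held an agonist of the retinoic acid receptor and because HOX proteins bind with PBX. RefSeq windows of 250 bases before a transcript start (assembly GRCh38.p14) matched 6 of the 9 genes, in 12 windows, of which HOXA3 had 7. HOXB2, HOXB3 and HOXB4 had no entry. The PBX-HOX motif was searched as TGATNNAT on both strands and lay in 2 windows, those of HOXB1 and HOXA2. In all 35116 RefSeq promoter windows of this length, 6.47% held it. The CCAAT box, searched as CCAAT on both strands, lay in 6 of the 12 windows and in 32.0% of all windows. The retinoid receptor core AGGTCA, searched on both strands, was in 0 of the 12 windows and in 12.1% of all. Direct repeats of AGGTCA, 5 or 2 bases apart, were likewise in 0 of the 12 windows, and each spacing was in 0.00285% of all. Each direct repeat holds the core, and the PBX-HOX matches of HOXB1 and HOXA2 overlap no CCAAT box. These matches describe the letters in the windows only, and elements farther away, inside introns or downstream of a gene, were not searched.

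HOXB1 is shown as the highest gene of the set, at chr17:48531012-48531261 on the minus strand, and its capitals mark the PBX-HOX match, whose first base lies 125 bases before the RefSeq start. HOXA2 is shown as the other gene with that match, as 30 bases at chr7:27102779-27102808 on the minus strand. Its match lies on the opposite strand to the gene, with its first base 114 before the RefSeq start, and falls within an exon of a longer HOXA2 transcript in GENCODE release 29. HOXA4 and HOXD4 are shown as the group 4 genes with an entry, with a CCAAT box on the opposite strand in capitals. The HOXA4 stretch, chr7:27130800-27131007 on the minus strand, lies inside the span of HOXA3 and its first capital is 216 bases before the RefSeq start. HOXD4 is given as 30 bases at chr2:176151500-176151529 on the plus strand, with the first capital 38 bases before the RefSeq start. This stretch is exonic in GENCODE, both in HOXD4 and in a readthrough gene that joins HOXD3 and HOXD4.
HOXB1: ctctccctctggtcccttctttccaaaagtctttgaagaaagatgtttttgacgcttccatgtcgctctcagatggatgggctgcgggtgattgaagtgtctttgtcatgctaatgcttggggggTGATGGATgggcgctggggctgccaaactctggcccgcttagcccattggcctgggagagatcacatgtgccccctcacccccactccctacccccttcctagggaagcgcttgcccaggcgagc
HOXA2: gacttttttggATCAATCAaacagacagtg
HOXA4: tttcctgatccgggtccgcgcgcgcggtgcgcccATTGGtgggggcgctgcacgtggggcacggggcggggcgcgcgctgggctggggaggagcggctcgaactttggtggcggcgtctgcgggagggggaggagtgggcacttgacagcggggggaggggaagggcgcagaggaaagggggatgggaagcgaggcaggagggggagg
HOXD4: tgctccctcgccATTGGctggcctggtcac

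The first question was where the genes were on at all. Levels above 0.319 TPM were found only in the 8 libraries of posterior origin. In the 10 libraries of hPSC and of anterior origin, 78 of 90 values were listed at 0 and the other 12 reached at most 0.319 TPM, the level of HOXA2 in aNE replicate 1. In aNE_H, 0 of 18 values were above 0, so the hindbrain medium alone was not accompanied by a measured level of any of the 9 genes in cells of anterior origin. The values above 0 were 2 of 18 in hPSC, 2 in aNE, 1 in aNE_T and 7 in aNE_M. HOXB3 was the gene of this kind seen in both aNE_M libraries, at 0.194 and 0.270 TPM.

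**Figure D1:**
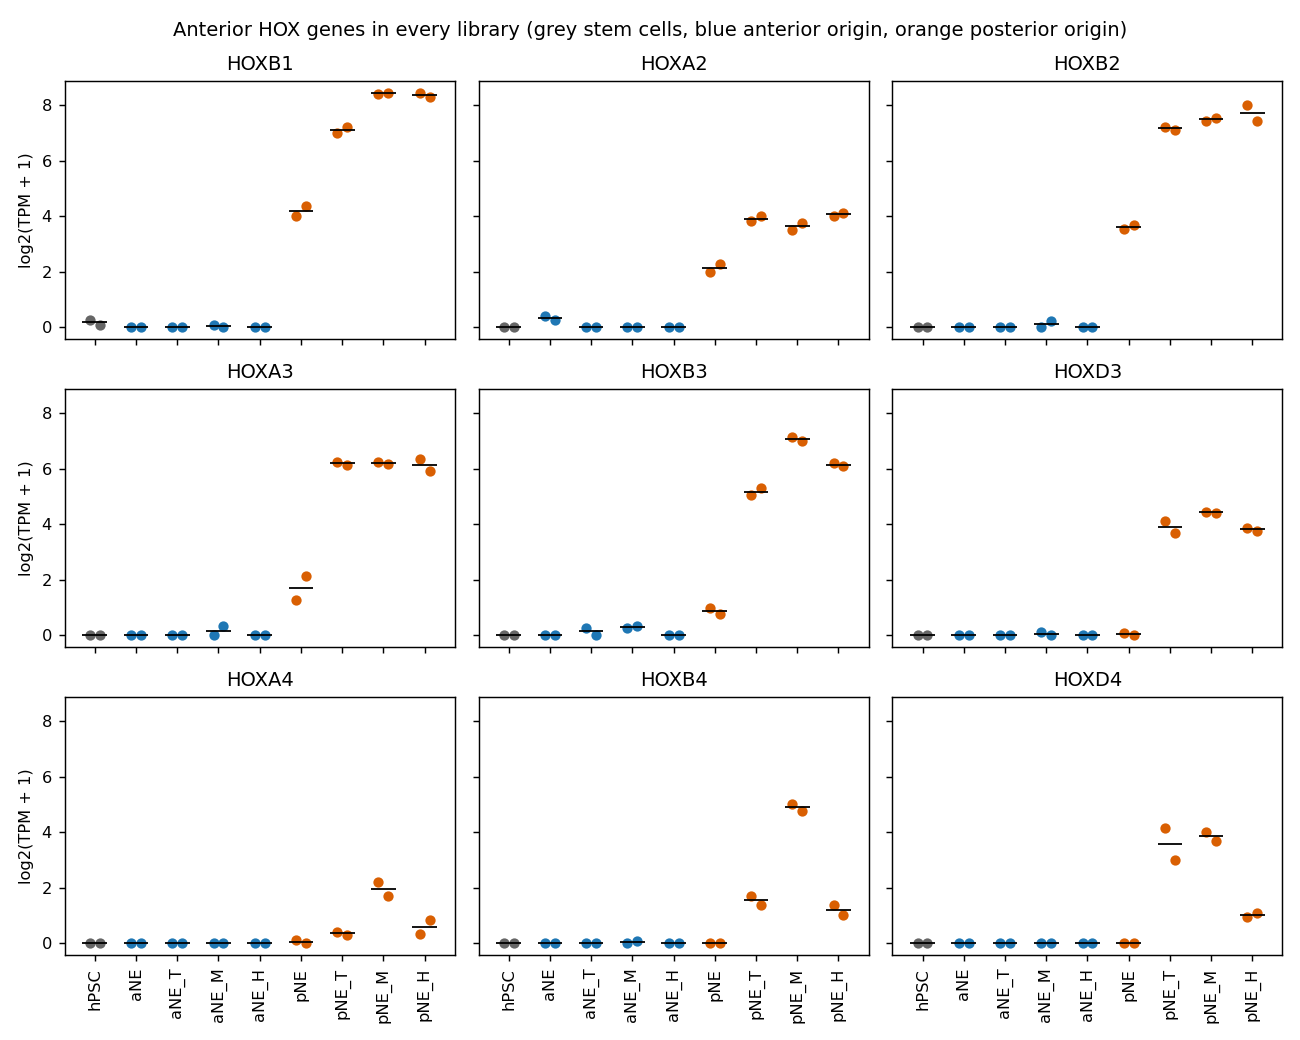
Each panel shows 1 gene; the vertical axis is log2(TPM + 1), the horizontal axis the 9 groups, each point a library and each bar the mean of 2 libraries. The 10 libraries of stem cells and anterior origin lie at or near 0, and the 8 libraries of posterior origin rise from pNE to the day-4 groups.

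Between aNE and hPSC, limma called 0 of the 9 genes, where 13.5% of all tested genes were called in either direction. Against aNE, 0 of 9 were called in each of aNE_T, aNE_M and aNE_H, where 9.03%, 12.0% and 10.1% of all tested genes were called in either direction. In these 4 comparisons 0 of 9 reached an unadjusted p under 0.05. The values compared were at most 0.319 TPM, too low for a difference of 1 on the log2(TPM + 1) scale. The counts of 0 were thus fixed by the low levels, and nothing is read from them. With a pseudocount of 0.1, limma called HOXA2 higher in aNE, at 0.208 and 0.319 TPM, than in hPSC and in each day-4 anterior group, all listed at 0. It then also called HOXB1 lower in aNE than in hPSC and HOXB3 higher in aNE_M than in aNE, all at levels under 0.3 TPM. All 9 genes passed the filter of at least 1 TPM in at least 2 libraries, but only through libraries of posterior origin. A gene that passes in this way had to differ between origins, so the counts of calls between origins are given as a description and support nothing.

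At day 2 the posterior cells held the genes of groups 1 and 2 at the highest levels and those of group 4 at or near 0. HOXB1, which sets the identity of the hindbrain segment that makes facial motor neurons, was at 15.2 and 19.5 TPM in the pNE libraries. HOXB2, which in the hindbrain lies downstream of HOXB1, was at 10.5 and 11.7 TPM. HOXA2, the HOX gene with the most forward limit in the hindbrain and a selector of the second pharyngeal arch, was at 2.98 and 3.85 TPM. In group 3, HOXA3, which is needed for thymus and parathyroid development, was at 1.38 and 3.44 TPM. HOXB3, which acts in the hindbrain behind HOXB1, was at 0.981 and 0.709 TPM, and HOXD3, a partner of HOXA3 in patterning the neck vertebrae, at 0.0631 and 0 TPM. All group 4 genes, whose limits lie in the last hindbrain segments and which pattern the neck vertebrae, were near or at 0. HOXA4 was at 0.0749 and 0 TPM, and HOXB4 and HOXD4 were listed at 0 in both libraries.

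The day-2 order by mean level was therefore HOXB1, HOXB2, HOXA2, HOXA3 and HOXB3, followed by 4 genes under 0.1 TPM in each library. Neighbours in this order were separated in their 2 libraries except HOXA2 and HOXA3, which overlapped, and the 4 lowest genes. The 9 genes summed to 31.1 and 39.2 TPM, of which group 1 took 48.8% and 49.7%, group 2 took 43.2% and 39.7%, and group 3 took 7.78% and 10.6%.

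Against aNE, limma called 4 of the 9 genes higher in pNE, where 2.37% of all tested genes were called higher. HOXA2 was at 0.263 ± 0.078 TPM (SD, n = 2) in aNE and 3.41 ± 0.62 TPM in pNE, a difference of 1.80 ± 0.16 SE (adjusted p = 5.25e-06). HOXB1, HOXB2 and HOXA3 were listed at 0 in both aNE libraries, so no fold is given, and their adjusted p was 3.73e-10, 9.55e-09 and 0.000331. The HOXA3 call rests on the spread shared by all groups, since with only the aNE and pNE libraries in the fit its adjusted p was 0.121. HOXB3 did not reach the fold threshold, at 0.845 ± 0.19 TPM against a group listed at 0 (adjusted p = 0.00124). With a pseudocount of 0.1 it was called against aNE (adjusted p = 0.000202) and against hPSC (adjusted p = 6.33e-05). The same 4 genes were called higher against hPSC, with 7.14% of all tested genes called higher there, and HOXA3 was lost with only these libraries in the fit (adjusted p = 0.0572). The comparisons share the pNE libraries, so the second is no separate evidence.

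By day 4 all 9 genes were above 0 TPM in all 6 libraries of posterior origin, whichever medium the cells had received. The summed level of the 9 genes was 428 and 429 TPM in pNE_T, 808 and 801 TPM in pNE_M, and 785 and 643 TPM in pNE_H. From pNE, limma called 8 of 9 higher in pNE_T, 9 of 9 in pNE_M and 8 of 9 in pNE_H, where 4.68%, 4.87% and 4.47% of all tested genes were called higher. HOXA4 was the gene not called in pNE_T and pNE_H, and with a pseudocount of 0.1 it was called in pNE_H (adjusted p = 0.0244). HOXB3, HOXD3 and the group 4 genes were under 1 TPM in both pNE libraries and so passed the filter only through day-4 libraries. These counts too are therefore a description.

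**Figure D2:**
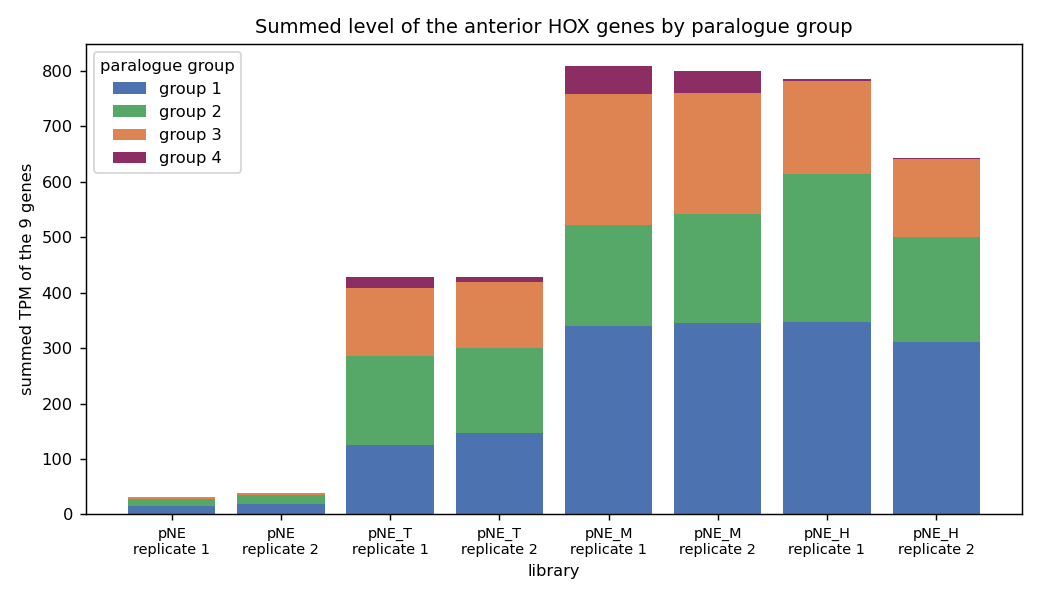
Bars show the summed TPM of the 9 genes in each of the 8 libraries of posterior origin, divided by paralogue group. The day-2 bars reach 31.1 and 39.2 TPM, the day-4 bars 428 to 808 TPM, and the group 4 part is tallest in the pNE_M libraries.

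HOXB1 went from a mean of 17.3 TPM in pNE to 126 and 147 TPM in pNE_T, 340 and 346 TPM in pNE_M, and 347 and 312 TPM in pNE_H. All 6 day-4 libraries lay above both day-2 libraries, and pNE_M and pNE_H overlapped each other while lying above pNE_T. The mean was 7.88 times that of pNE in pNE_T (2.91 ± 0.13 SE, adjusted p = 5.38e-09), 19.8 times in pNE_M (4.24 ± 0.13, adjusted p = 9.92e-11) and 19.0 times in pNE_H (4.18 ± 0.13, adjusted p = 2.30e-10).

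HOXB2 stood at 147 and 138 TPM in pNE_T, 173 and 184 TPM in pNE_M, and 253 and 172 TPM in pNE_H. These were 12.9, 16.1 and 19.2 times the pNE mean, and the 2 pNE_H libraries were far enough apart to span those of pNE_M. HOXA2 stood at 13 and 14.9 TPM in pNE_T, 10.4 and 12.5 TPM in pNE_M, and 15.2 and 16.4 TPM in pNE_H. Its increase from day 2 was the smallest ratio among the 5 genes with a mean above 0.5 TPM in pNE, at 4.09, 3.35 and 4.63 times. The 2 group 2 paralogues thus ended at very different levels, with HOXB2 above HOXA2 in every library of posterior origin.

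In group 3, HOXA3 reached 74.6 and 69.7 TPM in pNE_T, 75.3 and 70.8 TPM in pNE_M, and 81.1 and 59.9 TPM in pNE_H, about the same level in each medium. The mean was 29.3 to 30.4 times that of pNE. HOXB3 reached 32.2 and 38.2 TPM in pNE_T, 139 and 128 TPM in pNE_M, and 72.1 and 67.1 TPM in pNE_H, so that the 3 media did not overlap. These were 41.7, 157 and 82.4 times the pNE mean, the largest ratios in each medium among the genes with a mean above 0.5 TPM in pNE. HOXD3, at most 0.0631 TPM in pNE, reached 16.4 and 12.0 TPM in pNE_T, 20.8 and 20.1 TPM in pNE_M, and 13.6 and 12.5 TPM in pNE_H.

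In group 4, the genes differed from one another in how they varied between media. HOXB4, which is also known for expanding blood stem cells, went from 0 to 2.30 and 1.59 TPM in pNE_T, 31.8 and 26.1 TPM in pNE_M, and 1.58 and 1.02 TPM in pNE_H. HOXD4 went from 0 to 16.7 and 6.97 TPM in pNE_T, 15.0 and 12.0 TPM in pNE_M, and 0.914 and 1.12 TPM in pNE_H. Its pNE_T libraries differed in proportion by more than those of any other member in that group and spanned both pNE_M libraries. HOXA4 was the lowest of the 9 genes in every day-4 group of posterior origin, at 0.341 and 0.242 TPM in pNE_T, 3.64 and 2.27 TPM in pNE_M, and 0.257 and 0.799 TPM in pNE_H. The share of group 4 in the summed level was 4.53% and 2.05% in pNE_T, 6.24% and 5.04% in pNE_M, and 0.351% and 0.457% in pNE_H. The day-4 call of HOXD4 in pNE_H against pNE, at an adjusted p of 0.0124, was lost without pNE replicate 2 (adjusted p = 0.0518) and without pNE_H replicate 2 (adjusted p = 0.0689).

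The comparison of media within the posterior arm asked whether the medium after day 2 moved these genes. These 6 day-4 libraries share origin and plating density. In pNE_M against pNE_T, limma called 4 of 9 genes higher and 0 lower, where 3.31% of all tested genes were called higher. HOXB4 differed by 3.35 ± 0.19 SE, a mean 14.9 times as high (adjusted p = 2.55e-08), and HOXB3 by 1.89 ± 0.15, or 3.78 times (adjusted p = 6.24e-07). HOXB1 differed by 1.33 ± 0.13, or 2.52 times (adjusted p = 6.45e-06), and HOXA4 by 1.59 ± 0.22, or 10.1 times (adjusted p = 0.000105). HOXA4 reached 1 TPM only in the 2 pNE_M libraries and so entered the test through the group where it is high, which fixed its direction in comparisons with pNE_M. Among the genes not called, HOXD3 differed by 0.51 ± 0.16, HOXB2 by 0.32 ± 0.16, HOXD4 by 0.28 ± 0.28, HOXA3 by 0.02 ± 0.24 and HOXA2 by -0.27 ± 0.16.

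In pNE_H against pNE_T, 1 gene was called higher and 1 lower, where 1.65% and 3.38% of all tested genes were called in these directions. HOXB1 was 2.42 times as high in pNE_H (1.27 ± 0.13 SE, adjusted p = 2.11e-05). HOXD4 was lower, at 0.0860 of the pNE_T mean (-2.56 ± 0.28, adjusted p = 3.18e-05), and this call was lost with only these 4 libraries in the fit (adjusted p = 0.0976). HOXB3 lay just under the fold threshold, at 0.97 ± 0.15 (adjusted p = 0.000459), and passed it without pNE_T replicate 2, at 1.09. Without pNE_H replicate 2 it passed as well, at 1.02.

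In pNE_H against pNE_M, 3 genes were called lower and 0 higher, where 2.99% of all tested genes were called lower. These were the group 4 genes, of which HOXA4 had passed the filter only through pNE_M. HOXB4 stood at 0.0449 of the pNE_M mean (-3.71 ± 0.19 SE, adjusted p = 2.00e-08), HOXD4 at 0.0755 (-2.84 ± 0.28, adjusted p = 1.04e-05) and HOXA4 at 0.179 (-1.37 ± 0.22, adjusted p = 0.000571). With only these 4 libraries in the fit the adjusted p of HOXA4 was 0.0997. HOXB3 differed by -0.92 ± 0.15 and HOXD3 by -0.61 ± 0.16, both under the fold threshold. HOXB1 and HOXA3 differed by less than their SE, at -0.06 ± 0.13 and -0.07 ± 0.24. The 3 comparisons of media share libraries, and each is given for its own values.

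**Figure D3:**
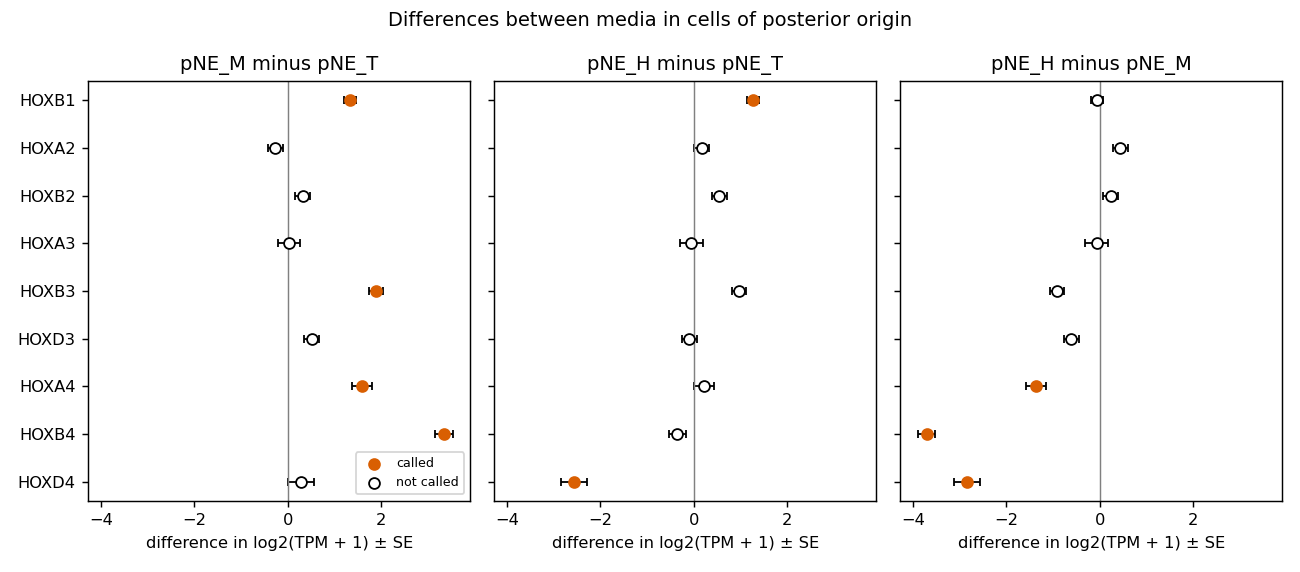
Points show the difference in log2(TPM + 1) between 2 media in cells of posterior origin for each gene, with bars of 1 SE from limma; filled points passed the threshold. HOXB4 lies at 3.35 in pNE_M against pNE_T and at -3.71 in pNE_H against pNE_M, while HOXA2 and HOXA3 lie within 0.5 of 0 in every panel.

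The order of levels at day 4 kept HOXB1 and HOXB2 at the top in each medium, and the 2 overlapped in pNE_T but not in pNE_M or pNE_H. In pNE_T they were followed by HOXA3 and HOXB3, then by HOXD3, HOXA2 and HOXD4, which overlapped as neighbours, and by HOXB4 and HOXA4. In pNE_M, HOXB3 lay above HOXA3 and HOXB4 above HOXD3, with HOXD4 and HOXA2 overlapping as neighbours. In pNE_H, HOXA3 and HOXB3 overlapped, as did HOXB4 and HOXD4 near the bottom. The HOXB members together held 71.7% to 85.9% of the summed level in the 8 libraries of posterior origin.

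At day 4 the same medium was also compared between origins. Here limma called 8 of 9 genes higher in pNE_T than in aNE_T, 9 of 9 in pNE_M than in aNE_M and 8 of 9 in pNE_H than in aNE_H, against 3.79%, 3.19% and 3.92% of all tested genes. HOXA4 was again the exception in pNE_T (adjusted p = 0.281) and pNE_H (adjusted p = 0.0749), and with a pseudocount of 0.1 it was called in pNE_H (adjusted p = 0.0156). HOXD4 in pNE_H, at a mean of 1.02 TPM against a group listed at 0, had an adjusted p of 0.0203. That call was lost when any of the 4 libraries compared was left out, with an adjusted p of 0.0801 or 0.0760 without an aNE_H library and 0.0585 or 0.0997 without a pNE_H library. Whether the change from day 2 to day 4 differed between origins was put to an interaction test. The difference was called for 8 of 9 genes in forebrain medium, 9 of 9 in midbrain and 7 of 9 in hindbrain. All were in the direction of a larger change in posterior cells. The share of all tested genes called in this direction was 3.17%, 3.33% and 3.91%. The filter had fixed the direction for HOXB3, HOXD3 and the group 4 genes, which reached 1 TPM only at day 4. With anterior levels at or near 0, the test repeats the change in posterior cells and is no separate support. HOXA4 (adjusted p = 0.290) and HOXD4 (adjusted p = 0.110) were the genes not called in the hindbrain medium. HOXD4 was called there with a pseudocount of 0.1 (adjusted p = 0.00522), with only the libraries compared (0.0236), without pNE_T replicate 1 (0.0125) and without pNE_T replicate 2 (0.0120).

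Genes of the clusters beyond group 4 were examined as a list of 27 genes of groups 5 to 13, of which 10 passed the filter on low values. All 10 passed only through libraries of posterior origin. At day 2, 0 of the 10 were called between pNE and aNE, where 2.37% of all tested genes were called higher and 1.48% lower. A count of 0 is near these shares. The median difference was 0.02 against -0.01 over all tested genes. In pNE_M, all 10 were called higher than in pNE_T, where 3.31% of all tested genes were. In pNE_H against pNE_M, 9 of the 10 were called lower and HOXA5 was not, where 2.99% of all tested genes were called lower. Of the 10, 8 reached 1 TPM only in the pNE_M libraries and so passed the filter through the group where they are high, which fixes their direction, and nothing is read from these counts. HOXA5, a group 5 gene that acts in lung and neck vertebra development, was the gene of this list with the largest call in pNE_H against aNE_H, at 14.5 ± 0.37 TPM against 0. HOXB6, HOXB8 and HOXB9, named after their values were seen, stood at 130 ± 12, 56.1 ± 8.3 and 142 ± 16 TPM in pNE_M and at 0.217 TPM or less as means in pNE_T and pNE_H. HOXB9 in pNE_M therefore lay at about the level of HOXB3 there. Of the genes between them, HOXB4 lay at 29 ± 4.0 TPM in pNE_M. HOXB5 and HOXB7, also named after their values were seen, lay lower still, at 14.0 ± 1.2 and 4.35 ± 0.68 TPM.

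**Figure D4:**
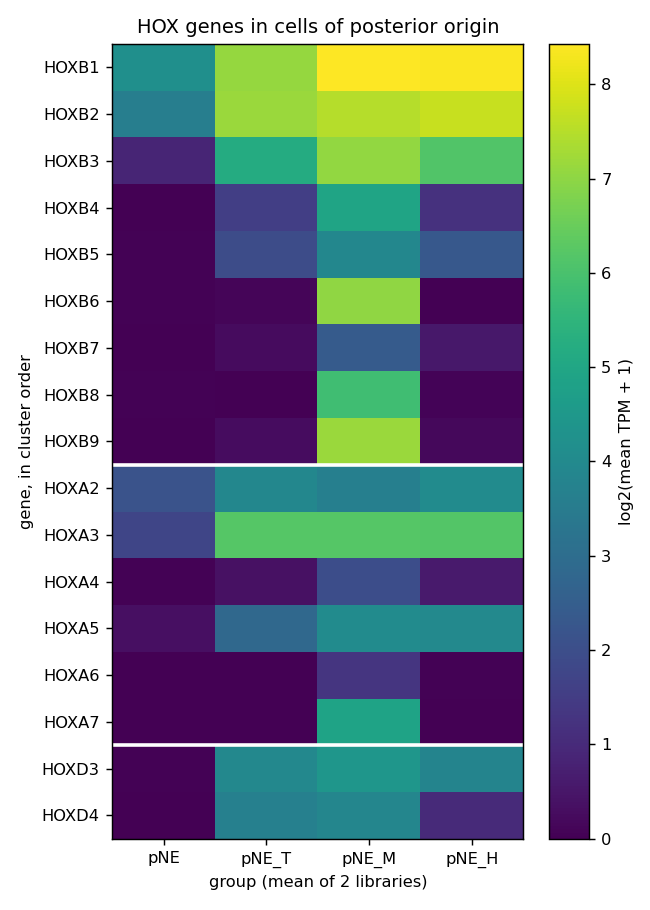
Colour shows log2(mean TPM + 1) for the 9 anterior genes and for the tested HOXA and HOXB genes of groups 5 to 9, in cluster order from top to bottom, in the 4 groups of posterior origin; white lines separate the clusters. At pNE the colour is above the lowest step mainly for the first genes of HOXB and HOXA, and in pNE_M it extends to HOXB9 at 142 TPM.

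HOXB3 and HOXB4 bear on this with their gene models. In GENCODE release 29 the HOXB3 gene, at chr17:48548870-48604912 on the minus strand, spans HOXB4 at chr17:48575513-48580111. HOXB3 shares 159 exon bases with HOXB4 and 433 with HOXB6, out of 7456. HOXB6 was at 130 TPM in pNE_M, where HOXB3 was highest, and the part of shared sequence in the HOXB3 difference was not tested. HOXD4, at chr2:176151222-176153226 on the plus strand, shares 80.5% of its exon bases with other genes, and HOXD3, at chr2:176136612-176173102, shares 74.1%. Most of this is a readthrough gene joining both, which has no row under its symbol, so values of HOXD3 and HOXD4 are uncertain to that extent. HOXA4, at chr7:27128507-27130799 on the minus strand, shares 47.3%, and HOXA3, at chr7:27106184-27152581, shares 17.9%. HOXB2, at chr17:48540894-48544989, shares 3.72%, while HOXB1, at chr17:48528526-48531001, and HOXA2, at chr7:27100354-27102811, share none. Whether strand was used in quantification is not given in the sources used here, so antisense RNA cannot be told apart. None of 15 noncoding RNAs of the HOX clusters that were looked up by symbol had a row. The table also has 7898 rows named by transcript identifier, which a lookup by symbol does not reach.

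Upstream regulators were followed in lists fixed for this description. The caudal factors, which include CDX1 and CDX2, homeodomain activators of the middle HOX genes in the trunk, had 6 of 8 genes tested. In pNE_M against pNE_T, 5 of the 6 were called higher, where 3.31% of all tested genes were, and CDX1 had passed the filter only through pNE_M. CDX1 and CDX2, named after their values were seen, stood at 113 ± 20 and 249 ± 3.7 TPM in pNE_M, at 0.163 and 0.696 TPM in pNE_T and at 0.329 and 3.86 TPM in pNE_H. At day 2, 1 of the 6 caudal factors was called higher in pNE than in aNE and 0 lower, where 2.37% and 1.48% of all tested genes were. This was NKX1-2, a homeodomain gene of caudal progenitors, at 6.57 and 1.39 TPM in pNE and aNE (1.66 ± 0.20 SE, adjusted p = 7.68e-05). It stood at 29.6 ± 1.1 TPM in hPSC, above both day-2 groups.

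Of 19 retinoid pathway genes, 18 were tested. In pNE against aNE, 7 were called higher and 0 lower, where 2.37% and 1.48% of all tested genes were, with a median difference of 0.76 against -0.01 over all tested genes. STRA6, a membrane receptor for retinol transport, was at 104 and 7.38 TPM in pNE and aNE (3.64 ± 0.12 SE, adjusted p = 5.19e-10). RARB, a retinoic acid receptor whose own gene responds to retinoic acid, was at 20.7 and 1.18 TPM (3.31 ± 0.15, adjusted p = 1.24e-08). NRIP1, a receptor corepressor, differed by 1.94 ± 0.11. In pNE_H against aNE_H, 8 of 18 were called higher and 0 lower, where 3.92% and 2.91% of all tested genes were. The largest were DHRS3, which returns retinaldehyde to retinol (5.83 ± 0.12), and RARB (5.53 ± 0.15). Within the posterior arm, RARB stood at 81.5 ± 5.2 TPM in pNE_T, 4.82 ± 0.48 in pNE_M and 61.2 ± 6.1 in pNE_H. The list went both ways in pNE_M against pNE_T, with 3 genes called higher and 4 lower, where 3.31% and 5.29% of all tested genes were. STRA6, for example, stood at 90.8 ± 7.5 TPM in pNE_T and 687 ± 73 TPM in pNE_M.

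Among 9 HOX cofactors, 1 was called higher in pNE than in aNE, where 2.37% of all tested genes were. This was MEIS2, at 97.9 and 24.7 TPM (1.95 ± 0.12 SE, adjusted p = 2.55e-07). In pNE_H against aNE_H, where 3.92% of all tested genes were called higher, 4 of 9 were called higher and 0 lower, among them MEIS1 (5.53 ± 0.22), MEIS2 (3.01 ± 0.12) and MEIS3 (1.20 ± 0.10). In pNE_M against pNE_T, 0 were called higher and 4 lower, where 3.31% and 5.29% of all tested genes were. MEIS3 was at 39.2 TPM in pNE_M and 217 TPM in pNE_T (-2.45 ± 0.10, adjusted p = 2.01e-09), and at 52.4 TPM in pNE.

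The list of hindbrain segmentation genes held 13 genes, all tested. In pNE against aNE, 4 were called higher and 2 lower, where 2.37% and 1.48% of all tested genes were. Those higher included GBX2, a homeodomain gene of the anterior hindbrain (194 and 1.05 TPM), and the zinc finger genes ZNF503 (105 and 1.24 TPM) and ZNF703 (35.2 and 2.18 TPM). In pNE_H against aNE_H, 7 were called higher and 1 lower, where 3.92% and 2.91% of all tested genes were. The gene called lower was GBX2, opposite to its day-2 direction (-1.62 ± 0.2 SE, adjusted p = 5.26e-05). Of the 13, 4 reached 1 TPM only in libraries of posterior origin. Among those higher, ZNF503 differed by 3.55 ± 0.17 SE (adjusted p = 1.07e-08). Polycomb subunits and H3K27 demethylases, which hold or release the silent state of HOX clusters, had 0 of 14 called between pNE and aNE in limma. Their median difference was 0.01. Of all tested genes, 2.37% were called higher and 1.48% lower, so a count of 0 is near that share and nothing is read from it.

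Summed levels of markers of other cell types differed between media in the posterior arm, and some sums rested mainly on few genes. The summed level of 8 paraxial and early mesoderm markers was 19.8 to 25.2 TPM in pNE_T, 31.1 to 32.5 in pNE_M and 22 to 22.7 in pNE_H. Most of this was MEOX1, at 17.8, 26.0 and 15.7 TPM, which was not called in pNE_M against pNE_T (0.53 ± 0.18 SE). TCF15 was at 3.77, 3.27 and 5.78 TPM. TBXT was the 1 of 4 tested markers called higher there and 0 were lower, where 3.31% and 5.29% of all tested genes were. PAX1 was listed at 0 in pNE_T, none of the 8 in pNE_M, and TBXT, MSGN1, MESP2 and PAX1 in pNE_H. For 6 endoderm markers the sums were 20.4 to 21.5, 31.0 to 33.6 and 15.8 to 18.1 TPM, with SOX17 listed at 0 in pNE_M. The higher sum in pNE_M was CXCR4, at 8.74, 29.5 and 2.05 TPM in pNE_T, pNE_M and pNE_H. In pNE_M against pNE_T it was the 1 of 5 tested genes called higher, and FOXA2 and FOXA1 were called lower. The shares of all tested genes were 3.31% and 5.29%. For 6 surface ectoderm markers the sums were 1210 to 1330, 2050 to 2110 and 1490 to 1690 TPM, with KRT5 listed at 0 in pNE_T and pNE_H. These sums were mainly KRT8 and KRT18, at 994 and 1090 TPM in pNE_M and already at 315 and 419 TPM in hPSC. GATA3 went the other way, at 7.32 TPM in pNE_T, 0.279 in pNE_M and 14.6 in pNE_H. Neural crest markers summed to 23.0 to 24.0, 37.2 to 44.7 and 36.1 to 37.0 TPM over 6 genes, which went both ways. In pNE_M against pNE_T, 2 of the 6 were called higher and 1 lower, against the same shares of 3.31% and 5.29%. In pNE_T, pNE_M and pNE_H, FOXD3 was at 0.0173, 15.9 and 0.0531 TPM and SOX10 at 0.602, 5.39 and 14.5 TPM. ETS1, the gene called lower, was at 10.7, 1.01 and 5.26 TPM. For 5 neuron markers the sums were 44.3 to 48.6, 228 to 244 and 60.9 to 71.3 TPM, with STMN2 listed at 0 in pNE_T and pNE_H. Nearly all of this was TUBB3, at 45.3, 234 and 64.7 TPM, which was at 226 TPM in hPSC. The neural ectoderm sum was 339 to 369 TPM in pNE_T and 108 to 131 in pNE_M, with LHX5 listed at 0 in pNE_M. The part of these markers in the differences of the HOX genes between media was not tested.

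Outside the HOX family, the 10 genes whose log2(TPM + 1) followed the mean of the 9 genes most closely over the 18 libraries had Pearson's r of 0.950 to 0.977. The libraries fall into groups at or near 0 and groups that are high, so these r describe mainly that split. Among them were TSHZ1 (r = 0.977), a zinc finger gene, SLC18A3 (0.965), the vesicular acetylcholine transporter, GYG1, PTGR3, METTL24, CD34, IGF2, INS-IGF2 and SLIT1. TSHZ1 went from 0.208 TPM in pNE to 18 in pNE_T, 46.3 in pNE_M and 35.9 in pNE_H, and was at most 0.218 TPM as a mean in the other groups. IGF2, a fetal growth factor, had means of 936 to 1278 TPM in the 3 day-4 groups of posterior origin and of at most 12.7 TPM in the other 6 groups. INS-IGF2 is a readthrough gene that shares sequence with IGF2.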

How the data were processed

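Poly-A RNA of 18 H1 libraries in 9 groups was measured. The authors deposited 1 table of TPM values, with 1 row per gene or transcript and 1 column per library. Per the submitters' processing notes, bcl2fastq, FastQC, Trim Galore, kallisto, deepTools and build hg38 were used, with no versions or roles. Annotation and strand setting are not given in the sources used here. TPM keep no read counts, so depth is unknown and no counting intervals are given.

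Values were analysed as log2(TPM + 1) for the 17033 genes that reached 1 TPM in 2 or more libraries. One mean for each group was fitted with limma 3.58.1 (R 4.3.3, 9 residual degrees of freedom, variance trend), with two-sided p-values adjusted by Benjamini-Hochberg over all tested genes, and was tested on simulated data. Calls needed an adjusted p under 0.05 and a difference of at least 1. The pool of libraries includes groups at 0, which add no spread. Gene models came from GENCODE release 29 and promoter sequences from RefSeq. Named were all members, at most 4 genes per list in pNE against aNE or pNE_H against aNE_H (called, at least 5 TPM), and the 10 genes of like pattern. A few genes that this rule names are not reported here. The members and lists were chosen with earlier results of these data known. Alternatives changed the pseudocount, filter, scaling, libraries fitted, call rule and replicate block, and left out each library. A fit of the 8 posterior-origin libraries was chosen after seeing the data.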

Additional observations from a re-analysis of the deposited data

Results flagged for a closer look

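The change from day 2 to day 4 differed between posterior and anterior origin for 24 combinations of gene and medium by the interaction test in limma. The values are differences of changes in log2(TPM + 1), posterior minus anterior, in groups that are partly listed at 0, and they are no folds. All these genes passed the filter on low values only through libraries of posterior origin. For HOXB3, HOXD3 and the group 4 genes these were day-4 libraries only, which fixed the direction. HOXA2, HOXA3, HOXB1 and HOXB2 also reached 1 TPM in both pNE libraries, so the filter did not fix theirs. With anterior levels at or near 0, the tests repeat the change in posterior cells and are no separate support. In the forebrain medium they were 2.10 for HOXA2, 4.49 for HOXA3, 2.91 for HOXB1, 3.57 for HOXB2, 4.16 for HOXB3, 1.55 for HOXB4, 3.86 for HOXD3 and 3.57 for HOXD4. In the midbrain medium they were 1.83 for HOXA2, 4.35 for HOXA3, 1.91 for HOXA4, 4.20 for HOXB1, 3.79 for HOXB2, 5.89 for HOXB3, 4.85 for HOXB4, 4.32 for HOXD3 and 3.85 for HOXD4. In the hindbrain medium they were 2.27 for HOXA2, 4.44 for HOXA3, 4.18 for HOXB1, 4.12 for HOXB2, 5.26 for HOXB3, 1.19 for HOXB4 and 3.77 for HOXD3. The adjusted p ranged from 3.23e-08 to 0.00147, from 1.92e-09 to 0.000953 and from 6.82e-09 to 0.00755 in these media. Of the groups entering these tests, origin and plating density cannot be told apart at day 4. Within each origin, day, medium and density cannot be told apart.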

How the results depend on the processing

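None of the 474 recomputed counts of called members and none of the 4248 recomputed differences changed direction where called, and 7 counts moved by more than 1.5 times. With a pseudocount of 0.1, 2 members were called between aNE and hPSC, 1 between aNE_T and aNE, 2 between aNE_M and aNE and 1 between aNE_H and aNE, all at under 0.4 TPM. With only the compared libraries in the fit, 1 member was called between pNE_H and pNE_T. By adjusted p alone, 4 were called between pNE_H and pNE_T and 5 between pNE_H and pNE_M. The cause was not tested, apart from the removed fold threshold. Leaving out each library in turn left all counts within 1.5 times. HOXD4 in pNE_H against aNE_H was also lost with no filter (adjusted p = 0.0674), and against pNE in the fit of the 8 posterior-origin libraries (0.0875). With only the compared libraries, HOXA3 in pNE against hPSC (0.0572) and HOXB4 in pNE_H against aNE_H (0.0524) were lost. HOXB3 in pNE_H against pNE_T passed under median-ratio scaling (1.03) and quantile normalization (1.07). At a filter of 5 TPM, HOXA4 was not tested. Same-numbered replicates of different groups did not deviate together (r from -0.0896 to 0.0762), so the numbers are not taken as pairs. With the replicate block, the count of members called stayed at 4 in pNE against aNE, 8, 9 and 8 against the same media in anterior cells, and changed in no comparison. TPM gives no depth, so levels under 1 TPM have unknown counting error.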
